A study of Danio rerio with 13 samples.

Results

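The mitochondrial genome of the zebrafish encodes protein subunits of 4 of the complexes of oxidative phosphorylation, and the 6 genes described here are those of complexes III, IV and V. They are *mt-cyb* of complex III, *mt-co1*, *mt-co2* and *mt-co3* of complex IV, and *mt-atp6* and *mt-atp8* of complex V. They were chosen by their Ensembl gene names, and all 6 were found among the 32105 genes of the count table. Brain RNA was sequenced from 13 male zebrafish of the AB strain at 3 months of age, with 1 library for each fish. Of these, 3 fish were homozygous (tert-/-) and 5 heterozygous (tert+/-) for a mutant *tert* allele, and 5 were wild type. The *tert* gene encodes the reverse transcriptase subunit of telomerase, and the mutant line (hu3430) carries a premature stop codon that is carried in the germline and so in every tissue. The comparisons address whether the level of these genes in the young adult brain, and the balance between them, differed with the number of mutant *tert* alleles.

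The respiratory chain passes electrons from reduced cofactors to oxygen and pumps protons across the inner mitochondrial membrane, and complex V, the ATP synthase, uses the returning protons to make ATP. Complex III hands electrons from ubiquinol to cytochrome c, and complex IV hands them from cytochrome c to oxygen. Most subunits of these complexes are encoded in the nucleus and imported, whereas the hydrophobic core subunits listed above are made inside the organelle. In vertebrates, mitochondrial genes are transcribed as long precursors that are cut into the separate messengers, so that the level of each messenger also depends on how it is processed and how long it lasts. Neurons rely heavily on oxidative phosphorylation, and these messengers are abundant in brain.

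The libraries held 22008289 to 32380953 counted reads, on 23786 to 24197 genes each. The *tert* transcript was present in all genotypes, at 8.01 ± 3.53 CPM (read counts scaled to a common library total, with TMM factors that correct for differences in library composition) in tert-/- brains (SD, n = 3), 5.69 ± 1.92 CPM in tert+/- brains (n = 5) and 2.55 ± 0.775 CPM in wild-type brains (n = 5). A stop codon need not remove the transcript, so these values do not check the genotype labels. The 4 brain markers found in the table, *gfap*, *elavl3*, *elavl4* and *mbpa*, were detected in every library. Their summed level was lowest in wild type 1, at 10138 CPM against 14341 to 20715 CPM in the other libraries, most of it from the myelin gene *mbpa*. Libraries tert+/- 3 and tert+/- 4 stood apart from the others, since they held the highest and second highest CPM of all 6 mitochondrial genes. Fold changes of the 6 genes that rest on these libraries are given with and without them. The mean shares of counts, the ratios, and the fold changes and r of nuclear gene lists include both. Of 16 listed skeletal muscle markers, 8 were found in the table, and these were detected in every library. They summed to 181 to 491 CPM over tert-/-, 115 to 615 CPM over tert+/- and 63.7 to 278 CPM over wild-type libraries. The sum was 615 CPM in tert+/- 3 and 336 CPM in tert+/- 4. For each marker list, Pearson r was taken between the log2 of its summed CPM plus 1 and the log2 share of counts of the 6 genes. For muscle it was 0.19 across the 13 libraries, with Spearman's rho = 0.15. Library tert+/- 3 held both the highest muscle sum and the highest share. The part of muscle RNA in the results below was not tested. Some of the 9 photoreceptor markers were not detected in every library, with *opn1mw1* found in 4 and *opn1lw2* in 5 of the 13. Their sum was high in tert+/- 3 (250 CPM) and wild type 5 (565 CPM), with r = −0.03 against the same share. The brain markers had r = 0.24 and Spearman's rho = 0.04. Of the marker lists, that of pigment and skin (4 genes) had the strongest relation to the share, with r = −0.39 and Spearman's rho = −0.53, and it summed to 11.8 to 36.3 CPM in tert-/-, 21.9 to 54.8 CPM in tert+/- and 14.99 to 60.4 CPM in wild-type libraries, highest in wild type 1. Its part in the results was not tested either.

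The 6 genes together took a large share of all counts, and that share varied between fish of the same genotype. They took 7.73, 9.47 and 7.82% of counts in the tert-/- libraries, 7.69, 8.29, 11.4, 11.2 and 8.82% in the tert+/- libraries, and 6.53, 8.33, 7.53, 9.23 and 6.80% in the wild-type libraries. The means were 8.34 ± 0.983% in tert-/- (SD, n = 3), 9.48 ± 1.71% in tert+/- (n = 5) and 7.69 ± 1.11% in wild-type brains (n = 5). The ranges of the 3 genotypes overlapped, and the difference between tert+/- and wild-type means, 1.80 percentage points, was close to the spread within tert+/-. In bulk RNA, fewer cells of a type and less RNA per cell cannot be told apart, and the same holds for the number of mitochondria and the RNA in each. Sample titles carry numbers that fall into 3 runs of neighbouring numbers, and the sources do not say what a run stands for. In the first run the share was 7.69% in tert+/- (1 library) and 6.53% in wild type (1 library). Within the second run the mean share was 8.60% in tert-/- (2 libraries), 9.85% in tert+/- (2 libraries) and 8.37% in wild-type brains (3 libraries). In the third run it was 7.82% in tert-/- (1 library), 10.01% in tert+/- (2 libraries) and 6.80% in wild-type brains (1 library). The tert+/- value was thus the higher in each run, but several of these values rest on 1 library. In the second run the order rested on tert+/- 3 (11.4%). The other tert+/- library of that run, at 8.29%, lay below the means of both other genotypes. In the third run the lower tert+/- library, at 8.82%, was still above the libraries of the other genotypes.

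Complex III is represented by *mt-cyb* (ENSDARG00000063924), which encodes cytochrome b, the subunit that binds the b-type haems and forms both quinone sites. It had 7929, 9933 and 6966 CPM in tert-/- brains, 7643, 8461, 13088, 12852 and 8577 CPM in tert+/- brains, and 6518, 8653, 7557, 10374 and 6558 CPM in wild-type brains. No tert-/- library lay above all wild-type libraries, whereas tert+/- 3 and 4 did, and the other tert+/- libraries lay within the wild-type range. The means were 8276 ± 1514 CPM in tert-/- (SD, n = 3), 10124 ± 2624 CPM in tert+/- (n = 5) and 7932 ± 1621 CPM in wild type (n = 5). Of the 6 genes, *mt-cyb* had the largest fitted variation between fish beyond counting, a biological coefficient of variation of 0.21, where the common value over all genes was 0.27.

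Complex IV is represented by 3 genes, which were the 3 most abundant transcripts of all 32105 genes by mean CPM. The most abundant was *mt-co1* (ENSDARG00000063905), which encodes the catalytic subunit that holds the haem and copper centre where oxygen is reduced. It had 30732, 36108 and 28380 CPM in tert-/- brains, 29336, 32024, 43892, 45323 and 33560 CPM in tert+/- brains, and 24571, 31989, 27645, 35094 and 23888 CPM in wild-type brains. The 3 groups overlapped, with tert-/- 2 and tert+/- 3 and 4 above the highest wild-type library.

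The gene *mt-co2* (ENSDARG00000063908) encodes the subunit whose copper centre takes electrons from cytochrome c. Its levels were 14114, 16960 and 14911 CPM in tert-/- brains, 15121, 15037, 21397, 21302 and 16957 CPM in tert+/- brains, and 11147, 15308, 13606, 17040 and 12312 CPM in wild-type brains. All tert-/- libraries and 3 of the 5 tert+/- libraries lay within the wild-type range. The gene *mt-co3* (ENSDARG00000063912) encodes the core subunit without a redox centre, and it had 15465, 18169 and 16267 CPM in tert-/- brains, 15926, 16896, 24435, 23631 and 18317 CPM in tert+/- brains, and 12393, 16542, 14587, 18793 and 13116 CPM in wild-type brains. Its pattern over fish was that of *mt-co2*, with the same pair of tert+/- libraries above the highest wild-type library and every other library within the wild-type range.

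Complex V is represented by *mt-atp6* (ENSDARG00000063911), subunit a of the ATP synthase, which lines the proton path beside the rotating ring, and by *mt-atp8* (ENSDARG00000063910), a small membrane subunit of the stator. The gene *mt-atp6* had 8104, 10954 and 9418 CPM in tert-/- brains, 9551, 10510, 13961, 13029 and 10678 CPM in tert+/- brains, and 7243, 9204, 8204, 10205 and 8354 CPM in wild-type brains. It was the one of the 6 in which most tert+/- libraries, 4 of 5, lay above every wild-type library, and tert-/- 2 did so as well. The gene *mt-atp8* had 1144, 1398 and 1180 CPM in tert-/- brains, 1136, 1253, 1765, 1451 and 1390 CPM in tert+/- brains, and 820, 1192, 1098, 1257 and 1069 CPM in wild-type brains. Here 3 of the 5 tert+/- libraries and tert-/- 2 lay above every wild-type library.

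**Figure D1:**
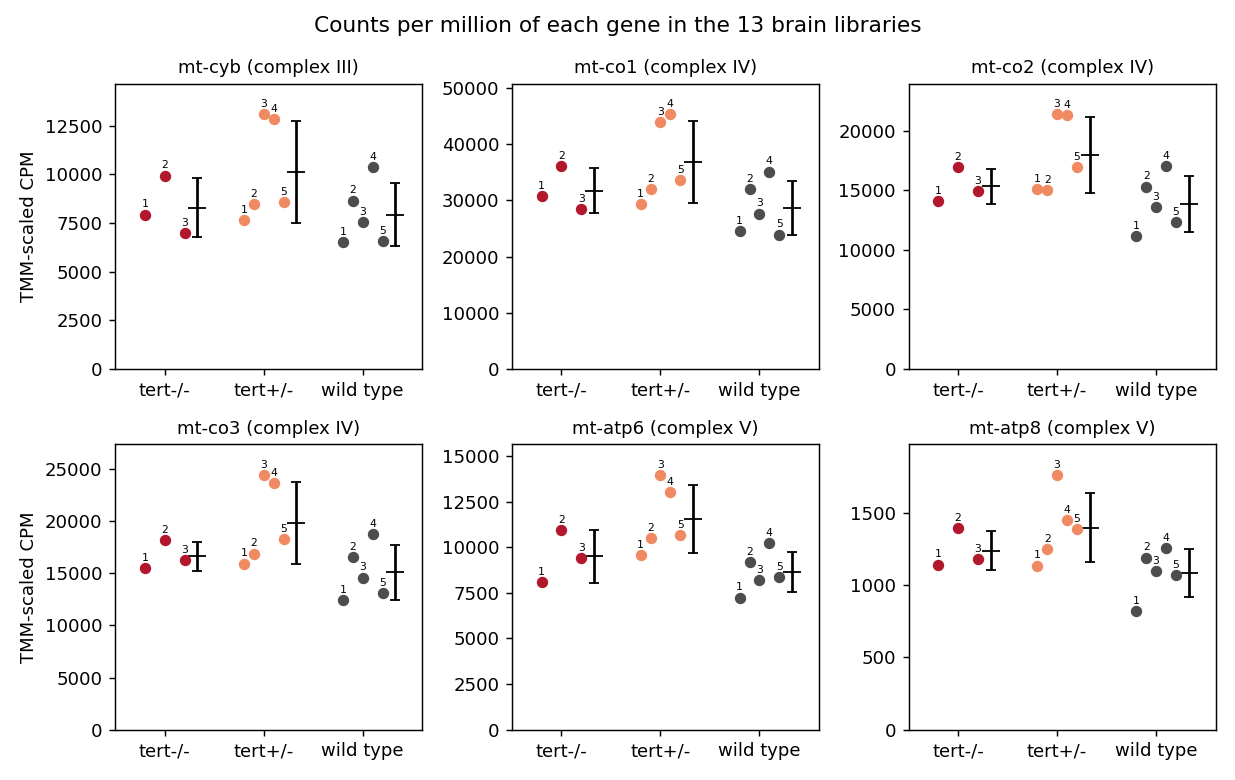
TMM-scaled CPM (vertical axis, from 0) of the 6 genes in each brain library, by genotype, with the replicate number beside each point and the mean ± SD as a bar. tert+/- 3 and 4 held the highest values of every gene, and the 3 genotypes overlapped in every panel.

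The groups overlapped for all 6 genes in all 3 comparisons. Over all 20064 genes tested, 2.17% had non-overlapping groups between tert-/- and wild type, 1.7% between tert+/- and wild type, and 2.4% between tert-/- and tert+/-. From the lowest to the highest of the 13 libraries, the level of a gene varied between 1.90-fold (*mt-co1*) and 2.15-fold (*mt-atp8*). In 5 of the 6 genes wild type 1 was the lowest library, and *mt-co1*, whose lowest library was wild type 5, was the exception.

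Levels can be compared between the genes only per length. The annotated lengths in the deposited table were 1141 bp for *mt-cyb*, 1551 bp for *mt-co1*, 691 bp for *mt-co2*, 786 bp for *mt-co3*, 684 bp for *mt-atp6* and 165 bp for *mt-atp8*. Per kilobase (kb) of this length, *mt-co2* had 22845 ± 4369 CPM, *mt-co3* 21974 ± 4513 CPM, *mt-co1* 20956 ± 4188 CPM, *mt-atp6* 14554 ± 2825 CPM, *mt-cyb* 7760 ± 1893 CPM and *mt-atp8* 7530 ± 1378 CPM (mean ± SD over all 13 libraries). On this scale they were the 6 highest of the 19521 genes for which a length could be recovered, whereas by CPM without length *mt-atp8* was 51st.

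The order per length was in part the same in every library. All 13 libraries had *mt-co1* above *mt-atp6*, by 1.44 ± 0.112-fold, and *mt-atp6* above *mt-cyb*, by 1.90 ± 0.197-fold. The complex IV genes lay close together, with *mt-co2* above *mt-co3* in 12 of 13 libraries (1.04 ± 0.0239-fold) and *mt-co3* above *mt-co1* in 10 of 13 (1.05 ± 0.0430-fold). At the low end, *mt-cyb* lay above *mt-atp8* in 7 of 13 libraries, with a ratio of 1.03 ± 0.124, so that this pair did not differ beyond its spread. On the mitochondrial genome *mt-atp8* and *mt-atp6* overlap and *mt-atp6* adjoins *mt-co3*, and how reads shared by overlapping genes were assigned is not given in the sources used here. The levels of *mt-atp8* and *mt-atp6* depend on that choice.

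**Figure D2:**
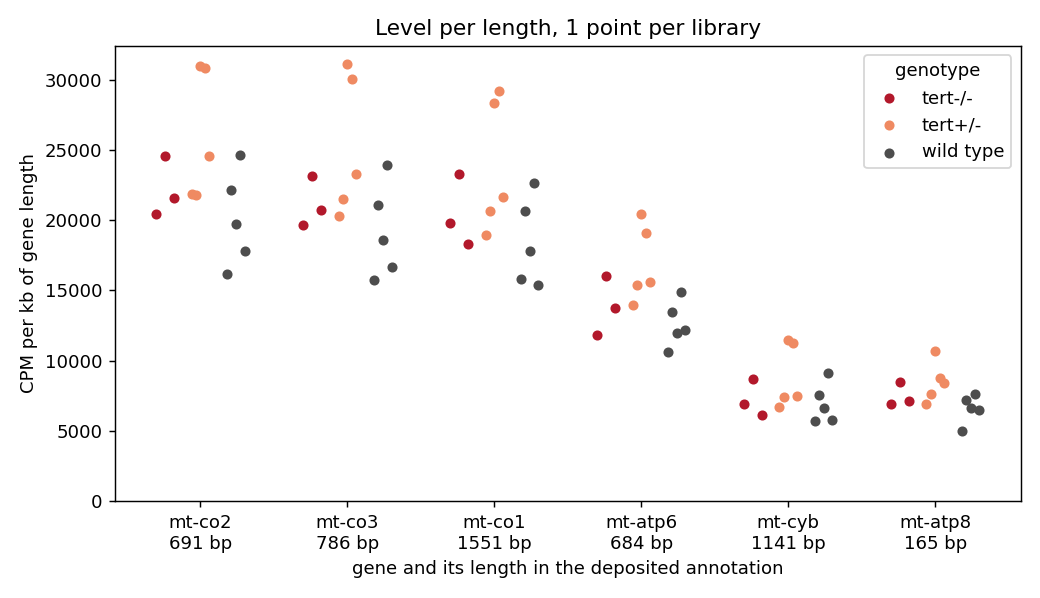
CPM per kb of gene length (vertical axis) for the 6 genes, ordered by their mean, with 1 point for each library coloured by genotype. The complex IV genes lay together at the top, *mt-atp6* below them, and *mt-cyb* and *mt-atp8* overlapped at the bottom.

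The tert-/- and wild-type brains showed no difference in any of the 6 genes that passed the test. All 6 were slightly higher in tert-/-, with log2 fold changes of 0.06 ± 0.21 for *mt-cyb*, 0.15 ± 0.17 for *mt-co1*, 0.14 ± 0.16 for *mt-co2*, 0.14 ± 0.17 for *mt-co3*, 0.14 ± 0.15 for *mt-atp6* and 0.19 ± 0.15 for *mt-atp8* (± SE), where 50.2% of all genes had a value above 0. Except for *mt-atp8*, each value was within 1 SE of 0, and the median of the 6, 0.14, stood beside a median of 0.00 over all genes. Leaving out 1 library at a time, this median was between 0.06 (without tert-/- 2) and 0.23 (without wild type 4), and it was 0.08 without wild type 1. With edgeR, 0 of 6 genes passed at an adjusted p under 0.05, where 0% of all 20064 genes did, and 0 of 6 had an unadjusted p under 0.05, where 2.13% of all genes did (0.832% counted as higher in tert-/-). DESeq2 also called 0 of the 6, where it called 0.0593% of 26989 genes. The value of *mt-cyb* had no stable sign. It was −0.084 without tert-/- 2, −0.00017 without wild type 5 and −0.0039 when the title run entered the fit as a covariate, and within the second run of title numbers the median of the 6 genes was 0.03.

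The tert+/- brains had higher mean levels of all 6 genes than wild-type brains, by about 1.28-fold (*mt-cyb*) to 1.34-fold (*mt-atp6*), but none passed the test over all genes. The log2 fold changes were 0.35 ± 0.18 for *mt-cyb*, 0.36 ± 0.15 for *mt-co1*, 0.37 ± 0.14 for *mt-co2*, 0.40 ± 0.14 for *mt-co3*, 0.42 ± 0.13 for *mt-atp6* and 0.36 ± 0.13 for *mt-atp8* (± SE). These 6 values lay between 0.35 and 0.42 and stood above 0 where 49.4% of all genes did. In every comparison the 6 genes were read in the same fish and moved together, so they are not 6 separate observations. With edgeR, 0 of 6 genes passed, as did 0% of all genes (adjusted p = 0.602 to 0.661). An unadjusted p under 0.05 was reached by 5 of 6 genes, with *mt-cyb* the exception, and by 7.75% of all genes, or 4.11% counted as higher in tert+/-. DESeq2 called 0 of the 6, with adjusted p values from 0.211 to 0.619, where it called 0.12% of 23354 genes.

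The size of this difference varied with the scaling and with the libraries included. On library totals without TMM factors, an alternative added after seeing the data, the median log2 fold change was 0.29, against 0.37 with them. There, 4 of 6 genes had an unadjusted edgeR p under 0.05, where 2059 of 20064 genes did. Leaving out 1 library at a time, the median log2 fold change of the 6 genes ran from 0.30 without tert+/- 3 to 0.46 without wild type 4. An unadjusted p under 0.05 was then reached by 1 of 6 genes without tert+/- 3, where 1170 of 20011 genes did, and by 3 of 6 without tert+/- 4, where 1607 of 20057 did. It was reached by 6 of 6 without tert+/- 1 (1763 of 20062 genes) and by 6 of 6 without wild type 4 (1431 of 20000 genes). Leaving out any other single library gave 4 or 5 of 6. Libraries tert+/- 3 and 4 were singled out because they held the highest levels, so that leaving out both had to lower the tert+/- values. Without them, an alternative added after seeing the data, the log2 fold changes ran from 0.06 to 0.25 with a median of 0.18, and 0 of 6 genes had an unadjusted p under 0.05, where 1232 of 19962 genes did. When the title run entered the fit as a covariate, 6 of 6 genes had an unadjusted p under 0.05, where 1841 of 20064 genes did, and the adjusted p was 0.509 or above. Within the second run of title numbers, which includes tert+/- 3 but not tert+/- 4, the median was 0.30, and 0 of 6 genes had an unadjusted p under 0.05, where 1303 of 20140 genes did.

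The tert-/- brains had lower mean levels of all 6 genes than tert+/- brains, and again none passed. The log2 fold changes were −0.29 ± 0.21 for *mt-cyb*, −0.21 ± 0.17 for *mt-co1*, −0.23 ± 0.16 for *mt-co2*, −0.25 ± 0.17 for *mt-co3*, −0.28 ± 0.15 for *mt-atp6* and −0.17 ± 0.15 for *mt-atp8* (± SE). With edgeR, 0 of 6 genes passed (adjusted p = 0.975), as did 0% of all genes. None of the 6 had an unadjusted p under 0.05, where 4.62% of all genes did in either direction, and DESeq2 called 0 of the 6, where it called 0.0723% of 24912 genes. Without tert+/- 3 and 4 the median, −0.24 with all libraries, was −0.02, and *mt-cyb* and *mt-co1* turned to 0.017 and 0.013. With the title run as a covariate in edgeR it was −0.32. An unadjusted p under 0.05 was then reached by 3 of 6 genes, where 979 of 20064 genes did (adjusted p = 0.922). It was reached by 1 of 6 without tert-/- 2 (1333 of 20393 genes), without tert+/- 1 (1204 of 20062) and without the first title run (1144 of 19992). Leaving out any other single library gave 0 of 6. The 3 comparisons share their libraries, so the higher mean of tert+/- enters both comparisons that include it.

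**Figure D3:**
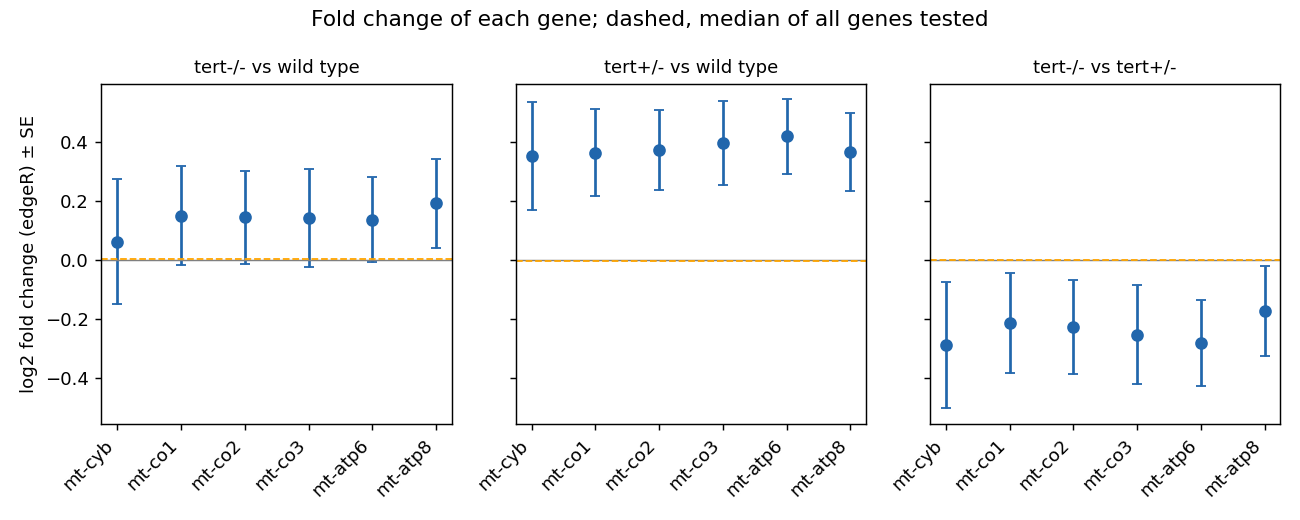
edgeR log2 fold change ± SE (vertical axis) of the 6 genes in the 3 comparisons, with the median of all genes tested as a dashed line. The values lie near 0.14 for tert-/- against wild type, near 0.37 for tert+/- against wild type and between −0.29 and −0.17 for tert-/- against tert+/-, close together within each panel.

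The ratios between the genes varied much less than their levels. Over the 13 libraries the SD of log2 CPM was between 0.26 and 0.33 for the 6 genes, whereas the SD of the log2 count ratio was between 0.03 and 0.17 for the 15 pairs, and it was above 0.1 in 7 pairs. Counting error alone would give an SD of 0.0027 to 0.0087 for these ratios. The pair with the smallest spread was *mt-co2* and *mt-co3* (SD 0.03), and the pair with the largest was *mt-cyb* and *mt-atp8* (SD 0.17).

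The ratio of *mt-co2* to *mt-co3* counts was 0.913, 0.933 and 0.917 in tert-/- brains, 0.949, 0.890, 0.876, 0.901 and 0.926 in tert+/- brains, and 0.899, 0.925, 0.933, 0.907 and 0.939 in wild-type brains. The tert-/- values lay inside the range of the other genotypes, and tert+/- 1 and 3 held the highest and the lowest. The ratio of *mt-cyb* to *mt-co1* was 0.258, 0.275 and 0.245 in tert-/- brains, 0.261, 0.264, 0.298, 0.284 and 0.256 in tert+/- brains, and 0.265, 0.270, 0.273, 0.296 and 0.275 in wild-type brains. Here tert-/- 3 was the lowest of the 13 libraries, as it was for each of the 5 ratios of *mt-cyb* to another gene.

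Within complex V, the ratio of *mt-atp6* to *mt-atp8* was 7.08, 7.83 and 7.98 in tert-/- brains, 8.41, 8.39, 7.91, 8.98 and 7.68 in tert+/- brains, and 8.84, 7.72, 7.47, 8.12 and 7.81 in wild-type brains. The lowest value belonged to tert-/- 1 and the highest to tert+/- 4. These genes overlap, so their ratio also depends on how shared reads were assigned. It need not be a ratio of separate messengers. The ratio of *mt-cyb* to *mt-atp8* was 6.93, 7.10 and 5.90 in tert-/- brains, 6.73, 6.75, 7.42, 8.86 and 6.17 in tert+/- brains, and 7.95, 7.26, 6.88, 8.26 and 6.13 in wild-type brains. Again tert-/- 3 was lowest and tert+/- 4 highest, and the 3 genotypes overlapped.

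No ratio passed a test between genotypes. Of 45 two-sided exact permutation tests, for 15 pairs in 3 comparisons, 0 had an unadjusted p under 0.05, the lowest p was 0.179 and the lowest adjusted p was 0.986. The smallest p the design allows is 0.0357 for 3 against 5 fish and 0.00794 for 5 against 5. The largest difference on the log2 scale was −0.13, for *mt-cyb* over *mt-atp8*, at 2.73 ± 0.145 in tert-/- (SD, n = 3) and 2.86 ± 0.171 in wild-type brains (n = 5), less than the SD of either group. The lowest p was shared by 2 ratios. One was *mt-cyb* over *mt-co1* in tert-/- against wild type, with log2 ratios of −1.95 ± 0.0825 in tert-/- and −1.86 ± 0.0595 in wild-type brains, a difference of −0.089. The other was *mt-atp6* over *mt-atp8* in tert-/- against tert+/-, with log2 ratios of 2.93 ± 0.0927 in tert-/- and 3.05 ± 0.0873 in tert+/- brains, a difference of −0.12. As these genes overlap, this value also depends on how shared reads were assigned and need not compare separate messengers.

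**Figure D4:**
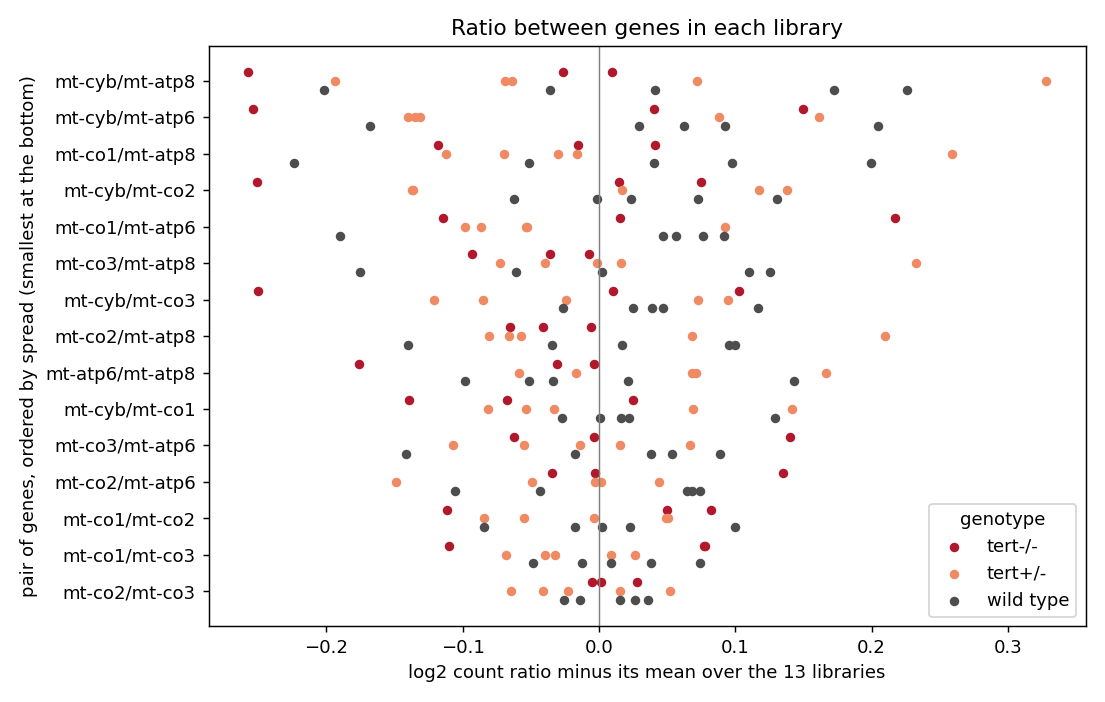
Log2 count ratio minus its mean over 13 libraries (horizontal axis) for each of the 15 pairs of genes, ordered by spread, with 1 point for each library coloured by genotype. The genotypes overlap in every pair, and the spread grows from *mt-co2* and *mt-co3* at the bottom to *mt-cyb* and *mt-atp8* at the top.

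The genes accordingly moved together from fish to fish. Pearson's r of log2 CPM between pairs of the 6 genes was between 0.86 (*mt-cyb* and *mt-atp8*) and 0.99 (*mt-co2* and *mt-co3*) over 13 libraries. All genes of a library share its depth and scaling. With the genotype means removed, r was between 0.82 and 0.99.

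The mitochondrial genome also encodes 7 subunits of complex I, and those served as the nearest reference. The 6 genes made up 81.8 ± 0.376% of the counts of all 13 mitochondrially encoded protein genes in tert-/- (SD, n = 3), 81.6 ± 0.717% in tert+/- (n = 5) and 81.5 ± 0.866% in wild-type brains (n = 5). Over the 13 libraries this share stayed between 80.2 and 82.4%, including tert+/- 3 and 4. Of the counts of all 13 genes, *mt-co1* alone took 31.4 ± 1.21% in tert-/-, 30.7 ± 0.613% in tert+/- and 31.0 ± 0.807% in wild-type brains. The median log2 fold change of the 7 complex I genes was 0.12 in tert-/- against wild type, 0.37 in tert+/- against wild type and −0.25 in tert-/- against tert+/-, next to 0.14, 0.37 and −0.24 for the 6 genes of complexes III to V. With edgeR, 0 of the 7 passed in any comparison, as did 0% of all genes. An unadjusted p under 0.05 was reached by 0, 6 and 1 of the 7, and by 2.13, 7.75 and 4.62% of all genes.

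Nuclear genes listed for the same complexes were tested to place the mitochondrial genes beside their partners. Most encode subunits, but the lists also held *uqcc6*, *cox7a2l*, *atp5if1a* and *atp5if1b*, for assembly or regulatory factors. Of the listed genes, 0 passed in any comparison with edgeR or DESeq2. The genes of a list were read in the same fish and need not vary independently. Counts of listed genes above 0, here and below, are therefore not counts of separate observations. In tert-/- against wild-type brains, 9 of 9 nuclear complex III genes, 17 of 18 complex IV genes and 19 of 19 complex V genes were above 0, with median log2 fold changes of 0.10, 0.13 and 0.08, where 50.2% of all genes were above 0. None of them had an unadjusted p under 0.05, where 2.13% of all genes did. The complex III gene with the lowest p was *uqcrfs1*, the Rieske iron-sulphur subunit, at 223 ± 19.6 CPM in tert-/- (SD, n = 3) and 200 ± 22.0 CPM in wild-type brains (n = 5). In complex IV it was *cox6a1* (ENSDARG00000054588, a symbol shared with another entry), at 1.38 ± 0.422 CPM in tert-/- and 0.849 ± 0.280 CPM in wild type. In complex V it was *atp5md*, a small membrane subunit of the ATP synthase, at 92.3 ± 9.00 CPM in tert-/- and 79.0 ± 10.6 CPM in wild type.

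In tert+/- against wild-type brains, 8 of 9 nuclear complex III genes, 16 of 18 complex IV genes and 19 of 19 complex V genes were above 0, where 49.4% of all genes were. The medians of these lists, 0.11, 0.13 and 0.15, were below the 0.37 of the mitochondrially encoded genes. Whether the nuclear and mitochondrial genes differed in this was not tested. An unadjusted p under 0.05 was reached by 0, 3 and 3 of the nuclear genes, all higher in tert+/-, and by 7.75% of all genes, or 4.11% counted as higher. Those with the lowest p were *uqcrh*, the hinge subunit of complex III (0.17 ± 0.10), *ndufa4*, a subunit of complex IV in mammals (0.15 ± 0.06), and *atp5meb*, for subunit e of the ATP synthase (0.18 ± 0.08, log2 fold change ± SE). Between tert-/- and tert+/- brains, 4 of 9, 9 of 18 and 8 of 19 were above 0, where 49.4% of all genes were, with medians of 0.00, 0.00 and −0.03. An unadjusted p under 0.05 was reached by 0 of these nuclear genes and by 4.62% of all genes. Those with the lowest p were *uqcrc2a*, a core protein of complex III (0.27 ± 0.22), *ndufa4* (−0.13 ± 0.07) and *dmac2l*, factor B of the ATP synthase in cattle (−0.18 ± 0.10).

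Genes for assembling complexes III to V were above 0 in 22 of 26 cases in tert-/- against wild type (median 0.08) and in 21 of 26 in tert+/- against wild type (median 0.14), and 9 of 26 were above 0 in tert-/- against tert+/- (median −0.08). Of all genes, 50.2, 49.4 and 49.4% were above 0 in these comparisons. An unadjusted p under 0.05 was reached by 1, 7 and 2 of the 26, where 2.13, 7.75 and 4.62% of all genes reached it. The gene with the lowest p was *sco1*, which in human cells helps to load copper into the product of *mt-co2*, for tert-/- against wild type (16.5 ± 1.83 CPM in tert-/- and 14.0 ± 1.11 CPM in wild type, SD). In both other comparisons it was *uqcc3*, a complex III assembly factor that acts on cytochrome b in human cells. It had 38.1 ± 5.10 CPM in tert-/-, 46.4 ± 3.91 CPM in tert+/- and 37.3 ± 2.19 CPM in wild-type brains (SD), with edgeR adjusted p = 0.602 in tert+/- against wild type and 0.975 in tert-/- against tert+/-.

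Genes for mitochondrial transcription and RNA handling were above 0 in 20 of 25 cases in tert-/- against wild type and in 13 of 25 in each of the other comparisons, with medians of 0.07, 0.02 and 0.01. Of all genes, 50.2, 49.4 and 49.4% were above 0. An unadjusted edgeR p under 0.05 was reached by 0, 2 and 2 of the 25, and by 2.13, 7.75 and 4.62% of all genes. The 2 in tert+/- against wild type were lower in tert+/-, and the 2 in tert-/- against tert+/- were higher in tert-/-. The lowest p values of the RNA handling genes belonged to *lrpprc*, which stabilises mitochondrial messengers in mammals (0.12 ± 0.09 in tert-/- against wild type), and to *tefm*, the mitochondrial transcription elongation factor. The *tefm* gene had 2.78 ± 0.249 CPM in tert-/-, 2.07 ± 0.199 CPM in tert+/- and 2.65 ± 0.226 CPM in wild-type brains (SD). It is a gene of low level, named because its p was the lowest of the 25. It did not pass (edgeR adjusted p = 0.602 in tert+/- against wild type and 0.975 in tert-/- against tert+/-). Of 10 genes for replication of mitochondrial DNA, 4, 5 and 4 were above 0 in the 3 comparisons (medians −0.02, −0.01 and 0.00), with *dguok*, a kinase that supplies deoxynucleotides, and *rnaseh1*, which removes RNA from RNA-DNA hybrids, at the lowest p. Of 7 regulators of mitochondrial biogenesis, 4, 4 and 3 were above 0 (medians 0.01, 0.09 and −0.06). The lowest p values there were those of the transcription factor gene *nrf1* (−0.17 ± 0.18 in tert-/- against wild type) and of the coactivator gene *ppargc1b* (0.35 ± 0.20 in tert+/- against wild type and −0.38 ± 0.24 in tert-/- against tert+/-).

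**Figure D5:**
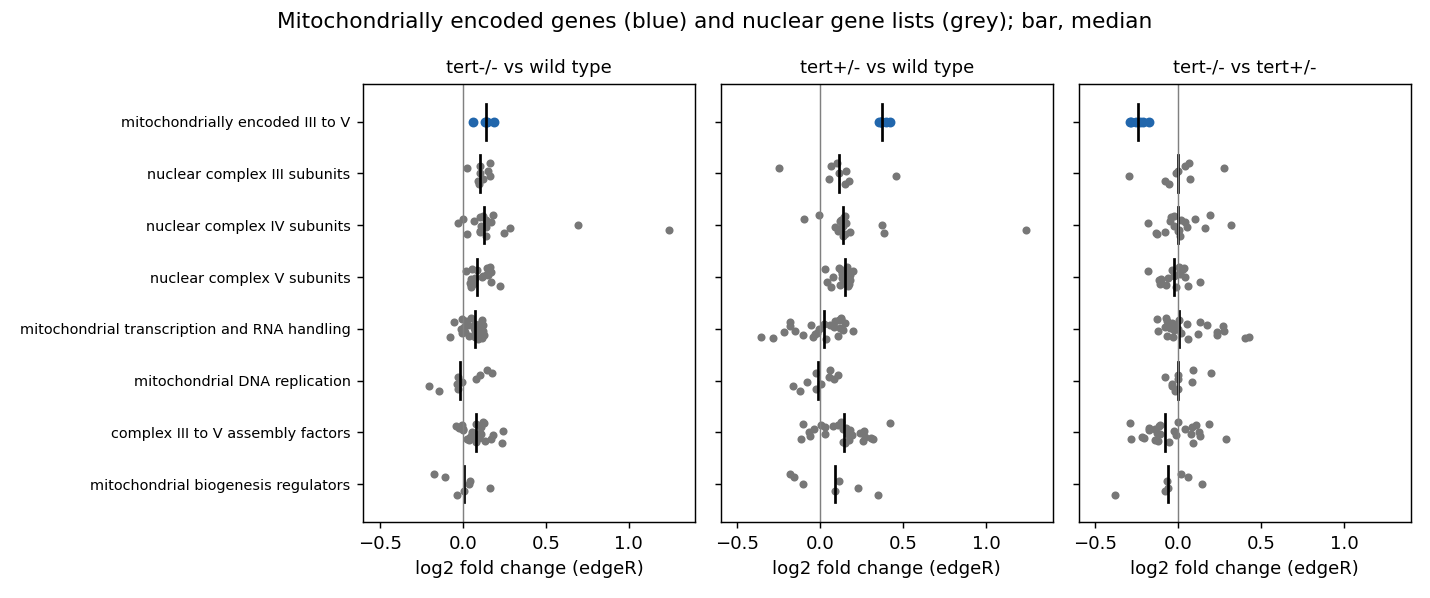
edgeR log2 fold change (horizontal axis) of the 6 mitochondrially encoded genes (blue) and of the genes of 7 nuclear lists (grey) in each comparison, with 1 point for each gene and the median as a bar. In tert+/- against wild type the mitochondrially encoded genes have a median of 0.37 and the nuclear complex III, IV and V genes medians of 0.11, 0.13 and 0.15.

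A search for genes of similar pattern covered the 20051 genes tested other than the 13 mitochondrially encoded protein genes. Those whose level followed the summed level of the 6 genes most closely over the 13 libraries were *atp5mea*, for subunit e of the ATP synthase (Pearson r = 0.94), *nudt9*, an ADP-ribose pyrophosphatase gene (0.92), the reticulon gene *rtn1b* (0.92), *gdap1*, for a protein of the outer mitochondrial membrane (0.92), and *gid8*, a ubiquitin ligase component (0.92). Levels were log2 CPM with the counts of those 13 protein genes left out of the library sizes. The high share of their reads thus does not lower the values of other genes by itself. Without the 2 libraries farthest from the median, r for these 5 genes was between 0.78 and 0.85. They are the highest of a search over all genes, in which the median r was −0.0012 and 2.49% of genes had r above 0.7. The median r was 0.67 over the nuclear complex III genes, 0.70 over complex IV and 0.61 over complex V. It was 0.46 over the assembly genes, 0.16 over the RNA handling genes and −0.28 over the biogenesis regulators. All genes of a library share its depth and preparation.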

How the data were processed

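Brain RNA of 13 fish was measured with 1 unstranded TruSeq RNA v2 library each, and groups follow the genotype labels. Replicates are separate fish, numbered in record order. Per the submitters' processing notes, the authors used bcl2fastq 1.8.4, STAR 2.4.1d on GRCz10 and featureCounts 1.4.6-p4, and deposited raw counts per Ensembl gene. The annotation release and the treatment of reads shared between genes or with nuclear copies of mitochondrial DNA are not given in the sources used here. The deposited RPKM values divide the counts by library totals recycled down the rows: of 145817 values, 8.57% returned a constant gene length (within 0.2%) when divided by the total of their own library, and 100.0% did with recycled totals. RPKM was therefore used only to recover lengths.

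Counts were tested with edgeR 4.0.16 in R 4.3.3 (TMM, filterByExpr for the 3 genotypes at min.count 10, 2-sided quasi-likelihood F tests, 1 fit of all 13 libraries), which kept 20064 genes and all 6 studied here, and p values were adjusted by Benjamini-Hochberg over all of them. SEs were derived from the F statistic. DESeq2 1.42.0 with default settings was an alternative. The 45 ratio tests were 2-sided exact permutation tests, adjusted over the 45. The edgeR fit was tested on simulated counts, and the permutation test on groups of fully separated values. For the ratios of the 6 genes, counting error (SD of the log2 ratio 0.0027 to 0.0087) was far below the spread between fish (0.03 to 0.17). For nuclear genes with few reads, such as *tefm*, this need not hold. Symbols from an Ensembl table matched 26269 of 32105 identifiers (81.8%).

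Nuclear genes named were, for each list and comparison, up to 3 that passed or else that with the lowest p, and the 5 with the highest r to the summed level of the 6 genes. The 6 genes and all lists were chosen with earlier results of these data known. Of the listed symbols, 9 of 11, 16 of 27 and 19 of 41 (with older synonyms) matched for complexes III, IV and V. Other settings were RLE factors, nuclear library sizes, no count filter, only the 2 groups, a title run covariate and leaving out each library. Sequences of the genes are not shown.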

Additional observations from a re-analysis of the deposited data

Results flagged for a closer look

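A sample far from the others of its group (a gap to its neighbour above the 95% critical value of Dixon's test for 5 samples) was found in 3 of 44 groups of values examined, where chance alone would give about 2.2. The log2 ratio of *mt-co1* to *mt-atp6* counts was 1.80 in tert+/- 4, above 1.61 to 1.65 in the other tert+/- libraries. The same log2 ratio was 1.52 in wild type 5, below 1.75 to 1.80 in the other wild-type libraries. The log2 ratio of *mt-co1* to *mt-atp8* counts was 4.97 in tert+/- 4, above 4.59 to 4.69 in the other tert+/- libraries. Wild type 5 was also the library with the highest sum of photoreceptor markers (565 CPM), and the part of this in its ratio was not tested. No level or share of a gene was flagged in this way.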

How the results depend on the processing

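With edgeR and DESeq2, 0 of the 6 genes passed under any of 23 alternative settings in each comparison, and 0 nuclear genes of the lists did. The number of genes called over all genes, 0 with edgeR in each comparison, was 16 in tert-/- against wild type, 28 in tert+/- against wild type and 18 in tert-/- against tert+/- with DESeq2. Without tert+/- 3 and 4, an alternative added after seeing the data, it was 3 in tert+/- against wild type and 1 in tert-/- against tert+/-. Leaving out 1 library gave 0 to 1, 0 to 5 and 0 to 1. The log2 fold change of *mt-cyb* in tert-/- against wild type, 0.06, turned to −0.0039 with the title run covariate, and to −0.084 and −0.00017 without tert-/- 2 and wild type 5, in a range up to 0.18 when 1 library was left out. That in tert-/- against tert+/- turned to 0.017 for *mt-cyb* and 0.013 for *mt-co1* without tert+/- 3 and 4. The share difference of tert+/- against wild type, 1.80 percentage points of all counts, was 2.27 relative to the counts outside the 13 mitochondrial protein genes. It was 1.31 to 2.24 points of all counts when 1 library was left out. That of tert-/- against tert+/-, −1.14, was −1.47 relative to the counts outside those 13 genes. Within the counts of the 13 genes the differences were 0.11 and 0.24, a measure that cannot show a change common to all 13. In tert+/- against wild type the log2 ratio difference of *mt-cyb* to *mt-atp8*, −0.03, was 0.028 without the first title run and −0.10 to 0.026 (above 0 without tert+/- 5, wild type 1 or wild type 4) when 1 library was left out, and that of *mt-cyb* to *mt-co1*, −0.02, was −0.053 to 0.0057 (above 0 without tert+/- 5 or wild type 4). The cause was not tested. No paired analysis was possible because the labels give no replicate numbers shared between genotypes. With 3 tert-/- fish and SEs of 0.15 to 0.21, a difference of the size seen cannot be told from 0.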
